A study of Rattus norvegicus with 8 samples.

Results

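Complex I of the respiratory chain was examined gene by gene in RNA from the *substantia nigra* (SN) of rats that overexpressed human α-synuclein (αSyn). Its genes were taken as every probe on the array whose RefSeq accession belongs to a rat symbol beginning with *Nduf* and the letter of a subunit series (a, ab, b, c, s or v) or of an assembly factor (af), followed by a number. The rule gave 52 of 45598 probes, for 42 of the 16678 genes that could be named. Of these genes, 7 encode core subunits, 25 encode accessory subunits and 7 encode assembly factors. The remaining 3, *Ndufa4*, *Ndufa4l2* and *Ndufa10l1*, carry a complex I symbol but are a component of complex IV, its paralogue and a paralogue of *Ndufa10*, and were kept apart. No probe is named here for *Ndufs6*, *Ndufa3*, *Ndufa8*, *Ndufb1*, *Ndufc1* or *Ndufaf2*, or for the subunits encoded by mitochondrial DNA, so these were not analysed here.

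The animals were female Sprague Dawley rats, 3 months old at surgery, that received a single-sided injection into the SN. The AAV-αSyn group received an AAV6 vector that carries wild-type human αSyn, at 5.2e+10 vector genomes per µL, and the AAV-Null group received an AAV6 null control vector, at 5.3e+09. The titres therefore differed between the groups, and titre and transgene cannot be told apart. The promoter that drives the transgene was not given in the sources used here. RNA from the injected side was collected at 20 weeks, and each of 8 samples, 4 per group, was hybridised to its own one-colour array. The study assigned 10 rats to each group, and the methods call the array samples biological replicates. The labels do not say which rats the arrays came from, so the p-values measure the spread between these samples. All 8 arrays lie on 1 slide, with 74.8% to 77.5% of spots well above background and no saturated spot. Correlations between arrays over all probes tested were between 0.992 and 0.996. Within the AAV-Null group, replicates 3 and 4 were the arrays most often farthest from the group mean, over all named genes as well as in the complex I genes. The AAV-αSyn arrays were not ranked in this way.

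Complex I passes electrons from NADH to ubiquinone and pumps protons across the inner mitochondrial membrane. It is shaped like an L, with a matrix arm that holds the flavin and the iron–sulphur clusters and a membrane arm that holds the proton pumps. The core subunits do the chemistry, the accessory subunits surround and stabilise them, and the assembly factors build the enzyme and then leave it. Loss of complex I activity in the SN has long been studied in Parkinson's disease, and inhibitors of the enzyme are used to injure dopaminergic (DA) neurons in rodents.

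The upstream sequences of these genes were looked at first, since nuclear genes for the respiratory chain are known to share binding sites for the transcription factors NRF1 and GABP (an ETS factor). RefSeq promoters of the rat assembly GRCr8, each from 250 bases before to 50 after the start, were found for 38 of the 42 genes. An NRF1-type motif, GCGC, any 2 bases and GCGC again, which reads the same on either strand, was in 9 of the 38 (23.7%), against 5.58% of all 33469 promoters of this length. The letters CCGGAAG, an ETS-type motif searched on both strands, were also in 9 of the 38 (23.7%), against 8.75% of all promoters. Between them these motifs were in 18 promoters, and no promoter held both. A YY1-type motif, AAGATGGCG on either strand, was in 7 of the 38 (18.4%), against 1.73% of all promoters, and in all 7 its first base lay within 30 bases after the start. The GC box GGGCGG, on either strand, was in 16 of the 38 (42.1%) against 33.1%. The complex I promoters also held more CpG dinucleotides, with a median of 20 against 7, and had a median GC content of 57.2% against 51.7%, and GC-rich motifs are met more often in GC-rich sequence. A match is a run of letters and was not tested as a binding site.

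The 110 bases before the start are shown for 2 core subunits, 1 accessory subunit and 2 assembly factors, so that examples of the NRF1-type and ETS-type motifs can be read. The stretches lie at chr1:210573699-210573808 (minus strand) for *Ndufs8*, chr9:113157521-113157630 (minus) for *Ndufv2*, chr9:1637504-1637613 (plus) for *Ndufa11*, chr3:147961502-147961611 (plus) for *Ndufaf5* and chr3:127104021-127104130 (minus) for *Ndufaf1*, all in GRCr8. Each is written from 5′ to 3′ towards the gene, with the NRF1-type motif in capitals for *Ndufv2*, *Ndufa11* and *Ndufaf5* and the ETS-type motif in capitals for *Ndufs8* (on the other strand) and *Ndufaf1*.
Ndufs8: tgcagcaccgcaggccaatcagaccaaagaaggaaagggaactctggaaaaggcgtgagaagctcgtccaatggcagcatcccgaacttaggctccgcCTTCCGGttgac
Ndufv2: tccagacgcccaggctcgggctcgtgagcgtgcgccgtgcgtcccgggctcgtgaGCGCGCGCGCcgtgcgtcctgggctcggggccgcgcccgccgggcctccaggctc
Ndufa11: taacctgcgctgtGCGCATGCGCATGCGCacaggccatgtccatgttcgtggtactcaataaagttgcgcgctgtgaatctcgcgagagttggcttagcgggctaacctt
Ndufaf5: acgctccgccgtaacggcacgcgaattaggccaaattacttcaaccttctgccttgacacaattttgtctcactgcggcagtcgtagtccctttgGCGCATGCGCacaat
Ndufaf1: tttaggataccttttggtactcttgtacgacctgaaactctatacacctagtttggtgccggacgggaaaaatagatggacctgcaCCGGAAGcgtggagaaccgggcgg
In *Ndufa11* 2 matches overlap and run together. In *Ndufaf5* and *Ndufaf1* the match begins 15 and 24 bases before the start.

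No complex I gene passed the test for a difference between the AAV-αSyn and AAV-Null groups. All 52 probes were well above background on all 8 arrays, so every gene could be tested. With limma's moderated test, 0 of the 42 had an unadjusted p under 0.05, where 5.51% of the 13648 named genes tested did, and 0 passed the Benjamini–Hochberg adjustment, against 0.022% of all named genes. The smallest p was that of *Ndufab1* (0.115, adjusted p = 0.947 from limma). No gene had groups of arrays that did not overlap, against 4.2% of all named genes. The fold changes lay on either side of 0, with 22 above it and 20 below it, where 44% of all named genes lay below. Their median was 0.0022 on the log2 scale, against 0.019 over all named genes tested.

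The intervals of the differences were narrow. For 41 of the 42 genes the 95% interval of the log2 fold change lay within ±0.5, and for 28 it lay within ±0.25. The exception to the wider bound was *Ndufa4l2*, at −0.66 to 0.58. In 38 genes the estimate itself was smaller than 0.1 in size. The median distance from an estimate to the end of its interval was 0.18. All 42 intervals included 0.

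**Figure D1:**
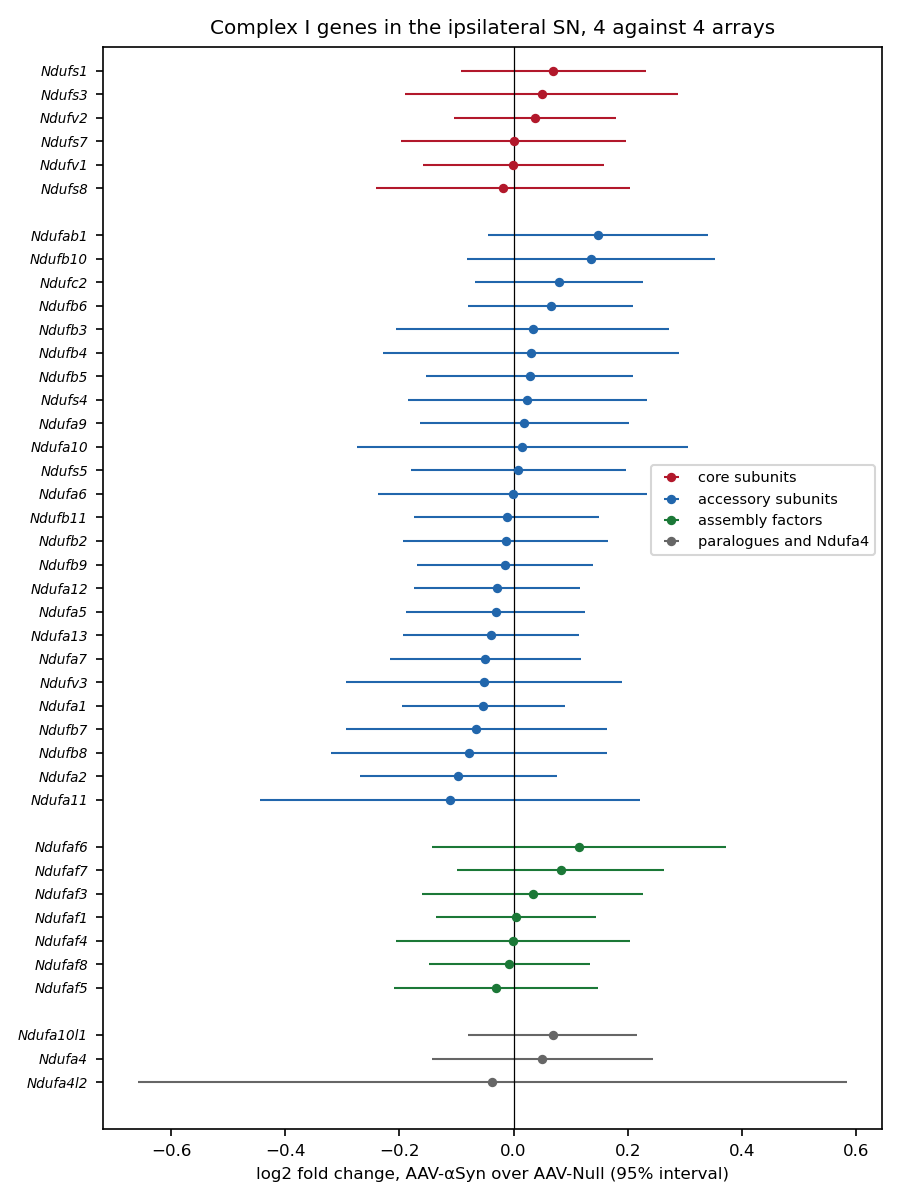
Log2 fold change, AAV-αSyn over AAV-Null, of 41 of the 42 genes, with points for the estimate and lines for its 95% interval from limma (4 arrays per group). Every interval shown crosses 0, and that of *Ndufa4l2*, −0.66 to 0.58, is the widest.

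The nuclear-encoded core subunits all belong to the matrix arm. Their log2 fold changes had a median of 0.013 and ran from −0.019 in *Ndufs8* to 0.070 in *Ndufs1*, with 5 above and 2 below 0. The 95% intervals of these 7 genes together reached from −0.24 to 0.29, which in linear terms is from 15.4% lower, for *Ndufs8*, to 22.2% higher, for *Ndufs3*.

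*Ndufv1* binds NADH and the flavin with which electron transfer begins. Its log2 intensities were 15.11, 15.21, 15.11 and 15.22 on the AAV-Null arrays and 15.24, 15.11, 15.11 and 15.19 on the AAV-αSyn arrays, in the order of replicates 1 to 4. The groups had the same mean, 15.16 ± 0.060 (SD, n = 4) in each. *Ndufv2*, its iron–sulphur partner, was 15.68, 15.74, 15.69 and 15.64 in AAV-Null and 15.75, 15.70, 15.72 and 15.72 in AAV-αSyn. The difference was 0.038 (95% interval −0.10 to 0.18), and the groups overlapped (exact permutation test, two-sided, p = 0.200). *Ndufs1*, the large iron–sulphur protein of the same module, was 13.85, 13.89, 13.84 and 13.998 in AAV-Null and 13.96, 13.97, 13.90 and 14.04 in AAV-αSyn. With all arrays it had the highest core estimate, 0.070 (95% interval −0.091 to 0.23), and AAV-Null replicate 4 lay above 3 of the AAV-αSyn arrays. The exact two-sided permutation p for this gene was 0.171. Without AAV-Null replicate 3 its estimate was 0.052, and that of *Ndufs3* (described next) was higher.

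Closer to the membrane, *Ndufs7* lines the pocket where ubiquinone is reduced. It was 14.24, 14.26, 14.40 and 14.08 in AAV-Null and 14.29, 14.16, 14.23 and 14.29 in AAV-αSyn. Its highest and its lowest value were both from AAV-Null arrays, and the means were equal to 2 decimals (14.24). *Ndufs3* supports this module, and was 14.29, 14.31, 14.64 and 14.20 in AAV-Null and 14.33, 14.47, 14.37 and 14.46 in AAV-αSyn. *Ndufs8*, which holds a pair of iron–sulphur clusters, was 12.04, 12.04, 12.33 and 11.95 in AAV-Null and 12.11, 11.96, 12.11 and 12.08 in AAV-αSyn. In *Ndufs3* and *Ndufs8* too, AAV-Null replicates 3 and 4 were the extremes of all 8 arrays. For these 3 genes the exact permutation p (two-sided) was between 0.629 and 1. Without AAV-Null replicate 3 the estimates of *Ndufs3*, *Ndufs7* and *Ndufs8* were 0.14, 0.053 and 0.060, and without AAV-Null replicate 4 they were −0.0029, −0.054 and −0.065.

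**Figure D2:**
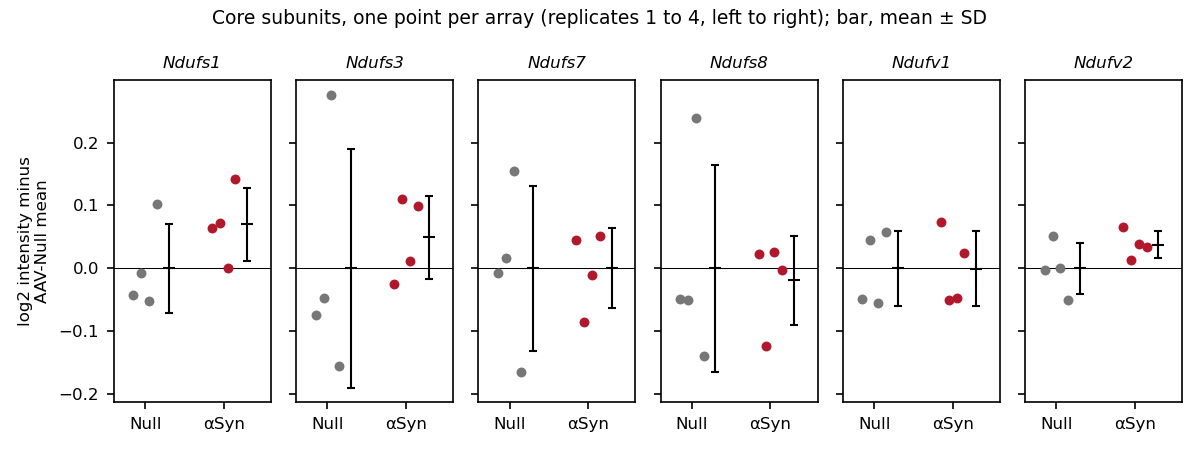
Log2 intensity of 6 nuclear-encoded core subunits on each array, relative to the mean of the AAV-Null arrays, with replicates 1 to 4 from left to right and bars for mean ± SD (n = 4). The groups overlap in every panel, and in *Ndufs3*, *Ndufs7* and *Ndufs8* AAV-Null replicates 3 and 4 are the highest and the lowest.

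The accessory subunits were the largest class, with 25 genes against 7 core subunits and 7 assembly factors. Their fold changes had the widest range, from −0.11 in *Ndufa11* to 0.15 in *Ndufab1*. The median was −0.012, with 11 genes above 0 and 14 below. None had an unadjusted p under 0.05. *Ndufab1* encodes the mitochondrial acyl carrier protein, which sits in both arms and also serves fatty acid synthesis. It was 14.57, 14.67, 14.84 and 14.55 in AAV-Null and 14.77, 14.76, 14.88 and 14.81 in AAV-αSyn. AAV-Null replicates 1, 2 and 4 lay below every AAV-αSyn array, and replicate 3 lay above 3 of them. The log2 fold change of 0.15 (95% interval −0.045 to 0.34) had an exact permutation p of 0.114 (two-sided). A further, much dimmer probe (AAV-Null mean 6.96, against 14.66) gave 0.16 (unadjusted p = 0.204, limma). Its arrays were ordered differently, with AAV-Null replicate 3 the lowest of all, at 6.86. Without AAV-Null replicate 3 the brighter probe of *Ndufab1* gave a log2 fold change of 0.21 and an unadjusted p of 0.0132 (adjusted p = 0.539, limma).

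Other accessory subunits with the highest estimates were all of the membrane arm. *Ndufb10* was 15.36, 15.17, 15.50 and 15.34 in AAV-Null and 15.60, 15.53, 15.35 and 15.42 in AAV-αSyn, a difference of 0.14 (95% interval −0.081 to 0.35). With each array left out in turn, the difference for *Ndufb10* was 0.079 to 0.19. *Ndufc2* was 15.31, 15.28, 15.25 and 15.37 in AAV-Null and 15.41, 15.40, 15.34 and 15.38 in AAV-αSyn. The difference was 0.080, with a 95% interval of −0.067 to 0.23. Its unadjusted p was 0.245 in limma (adjusted p = 0.972), and the exact two-sided permutation p was 0.0571. In *Ndufc2* only AAV-Null replicate 4 reached into the range of the AAV-αSyn arrays, and 4 against 4 arrays cannot give a permutation p below 0.0286. *Ndufb6* (0.065) and *Ndufb3* (0.034) came next, and without AAV-Null replicate 3 *Ndufb3* was at −0.040.

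The lowest estimates were spread over both arms. *Ndufa11*, a membrane-arm subunit, was 12.83, 12.93, 13.36 and 12.66 in AAV-Null and 12.88, 12.74, 12.90 and 12.82 in AAV-αSyn. Its difference of −0.11 (95% interval −0.44 to 0.22) came with an AAV-Null replicate 3 far above the other arrays, and without that array the estimate was 0.028. *Ndufa2*, of the matrix arm, was 13.13, 13.13, 13.14 and 12.97 in AAV-Null and 13.04, 12.89, 13.01 and 13.03 in AAV-αSyn. Here AAV-Null replicates 1 to 3 were above every AAV-αSyn array and replicate 4 was not (difference −0.097, exact permutation test, two-sided, p = 0.114). With each array left out in turn, the difference for *Ndufa2* was −0.14 to −0.061. *Ndufb8* (−0.078), *Ndufb7* (−0.065) and *Ndufa1* (−0.053), all of the membrane arm, followed. Without AAV-Null replicate 3 the estimate for *Ndufb7* was 0.021, and without AAV-Null replicate 4 that for *Ndufb8* was −0.0078. *Ndufa1* kept its sign when each array was left out in turn, at −0.073 to −0.042.

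Split by position in the enzyme, the 8 accessory subunits of the matrix arm had a median log2 fold change of −0.030, with 2 above and 6 below 0. The 16 of the membrane arm had a median of −0.0017, with 8 on each side. The median of the matrix-arm subunits, each gene taken relative to its mean over the 8 arrays, was 0.023, 0.029, 0.024 and 0.028 on the AAV-Null arrays and 0.021, −0.046, −0.064 and 0.0098 on the AAV-αSyn arrays. It was lower on all 4 AAV-αSyn arrays, by as little as 0.0019 between the nearest arrays of the 2 groups. None of the 8 genes passed the test, *Ndufs4*, needed for a stable NADH-oxidising module, stood at 0.024, and the difference between the arms was not tested.

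The assembly factors had a median of 0.0041, from −0.031 in *Ndufaf5* to 0.11 in *Ndufaf6*, with 4 above and 3 below 0. *Ndufaf6*, which acts early in building the enzyme, was 10.80, 11.13, 10.87 and 11.07 in AAV-Null and 10.88, 11.11, 11.09 and 11.26 in AAV-αSyn. Its interval, −0.14 to 0.37, was the widest of the class, and the groups overlapped over most of their range. With each array left out in turn, the estimate for *Ndufaf6* was 0.057 to 0.18. *Ndufaf7*, a methyltransferase that acts in the assembly of the matrix arm, was 9.84, 9.85, 10.07 and 9.95 in AAV-Null and 9.98, 10.02, 9.95 and 10.09 in AAV-αSyn. The difference was 0.083 (95% interval −0.099 to 0.26), and 0.052 to 0.13 with each array left out in turn. A dimmer probe of *Ndufaf7* pointed the other way, at −0.18 (unadjusted p = 0.258, limma), so the sign for this gene depends on the probe. Of the 8 complex I genes with more than 1 probe, the probes had the same sign in 6, the others being *Ndufaf7* and *Ndufa4l2*, whose probes gave −0.037 and 0.00.

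With all arrays, the rest of the assembly factors had estimates closer to 0. *Ndufaf3* (0.033) and *Ndufaf4* (−0.0015) act together on the quinone-binding module. *Ndufaf1* (0.0041) belongs to the complex that assembles the membrane arm, and its arrays lay between 8.22 and 8.31 in all. *Ndufaf5* (−0.031) hydroxylates *Ndufs7* and *Ndufaf8* (−0.0076) is its partner. Each of these 5 estimates changed sign when arrays were left out in turn. That of *Ndufaf3* ran from −0.014 without AAV-Null replicate 3 to 0.097 without AAV-Null replicate 4, and that of *Ndufaf4* from −0.052 to 0.045. Assembly factors with other names were taken from a separate list, of which 10 of 12 were tested. None of these had an unadjusted p under 0.05, their median was 0.0065, and they ran from −0.098 in *Timmdc1* to 0.11 in *Dmac1*.

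The core subunits, accessory subunits and assembly factors had medians close to each other, between −0.012 and 0.013. The medians of single arrays overlapped between the groups in each class. For core subunits they ran from −0.068 to −0.011 in AAV-Null and from −0.051 to 0.052 in AAV-αSyn. For accessory subunits they ran from −0.041 to 0.035 and from −0.043 to 0.030, and for assembly factors from −0.059 to 0.047 and from −0.018 to 0.059. The difference between the classes was not tested.

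**Figure D3:**
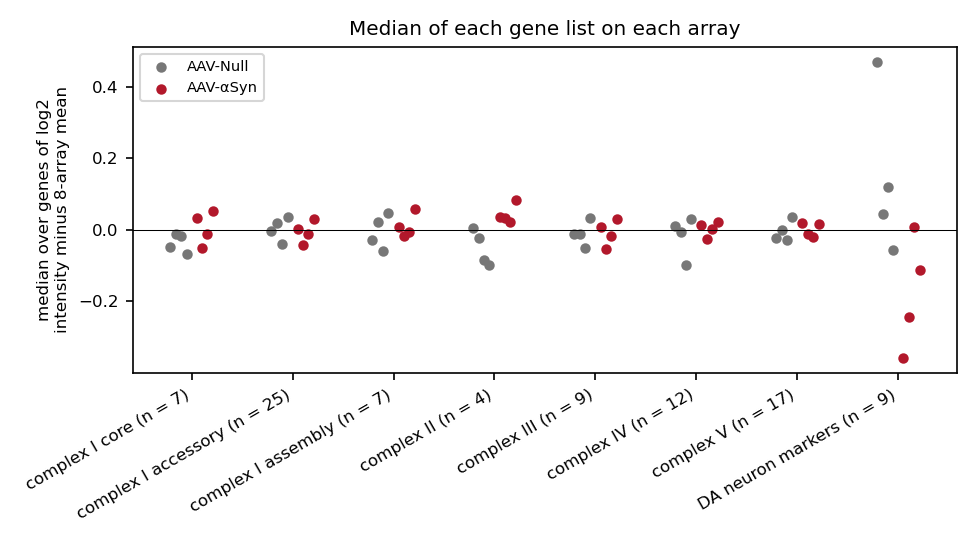
Median over the genes of each list of the log2 intensity minus the gene's mean over 8 arrays, 1 point per array, with AAV-Null in grey and AAV-αSyn in red. The complex I classes stay between −0.068 and 0.059 with overlapping groups, and the DA neuron markers run from −0.36 to 0.47.

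The other respiratory complexes were compared in the same way. Complexes III, IV and V (9, 12 and 17 genes tested) each had 0 genes with an unadjusted p under 0.05 and medians of −0.016, −0.0058 and −0.0068. All 4 subunits of complex II, which feeds electrons from succinate, had estimates above 0, with a median of 0.084. Among these *Sdhc*, named after its value was seen, was higher in AAV-αSyn by 0.17 with groups that did not overlap (unadjusted p = 0.0432, adjusted p = 0.868, limma). *Sdha*, also named after its value was seen, had groups that did not overlap too, at 0.085 (unadjusted p = 0.231, limma). Groups that did not overlap were thus found in 2 of the 4 subunits, against 4.2% of all named genes. Of 12 genes for mitochondrial biogenesis 0 had an unadjusted p under 0.05 and 1 had groups that did not overlap, *Tfam* (0.10, unadjusted p = 0.147, limma), against the same 4.2%. The list included *Nrf1* (−0.017), *Gabpa* (0.057) and *Ppargc1a* (0.078), whose proteins are known to act in the control of nuclear respiratory genes.

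Of the DA neuron markers, 4 were lower in the same AAV-αSyn samples at an unadjusted p under 0.05 in limma. All 9 that were tested, of 10 listed, had estimates below 0, and 2.05% of all named genes had such a p in this direction. *Th*, for tyrosine hydroxylase, had a log2 fold change of −0.52 and *Slc6a3*, for the dopamine transporter, −0.79 (unadjusted p = 0.000604 and 0.0142, adjusted p = 0.484 and 0.747, limma). The others were *Pitx3* and *Ddc*, named after their values were seen. The marker median was 0.47, 0.045, 0.12 and −0.057 on the AAV-Null arrays and −0.36, −0.24, 0.0069 and −0.11 on the AAV-αSyn arrays. In bulk tissue, fewer cells of a type and less RNA per cell cannot be told apart, and complex I is known to be present in nearly all cell types of the brain.

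Markers of other cells varied too. Astrocyte, oligodendrocyte, microglia and blood markers (7, 6, 7 and 4 tested) had 0 genes with an unadjusted p under 0.05. Serotonergic markers had 2 of 4 higher (*Tph2* and *Slc6a4*) and endothelial markers 1 of 5 higher (*Kdr*), where 3.46% of all named genes were higher. Thalamic markers had 2 of 3 lower (*Prkcd* and *Gbx2*) and general neuronal markers 1 of 8 lower (*Syt1*), where 2.05% of all named genes were lower. The neuronal list had 5 of 8 estimates above 0 and a median of 0.038. Of 4 noradrenergic markers 2 were tested, and they are not counted here. *Dbh* was well above background on 0 AAV-Null and 3 AAV-αSyn arrays, so it entered the test only through the group where it was high, and *Slc6a2* was at −0.39 (unadjusted p = 0.152, limma). The genes named from these lists were chosen after their values were seen. The per-array median of the serotonergic markers was −2.06 to 0.80 in AAV-Null and 0.27 to 1.62 in AAV-αSyn, and their part in the complex I values was not tested.

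The median within-group SD of the complex I genes was 0.089, against 0.16 over all named genes. It was 0.065 for core subunits, 0.090 for accessory subunits and 0.088 for assembly factors. All complex I probes were well above background on all 8 arrays, where named genes needed this on at least 1. The sets were not matched for brightness. The SD was larger among AAV-Null than among AAV-αSyn arrays in 35 of the 42 (83.3%), and in 74.5% of all named genes. The median SD of the 42 genes was 0.11 in AAV-Null and 0.059 in AAV-αSyn. The 42 tested genes of complexes II to V had median SDs of 0.091 in AAV-Null and 0.052 in AAV-αSyn, and the larger SD in AAV-Null in 32 (76.2%), and no difference in spread between these sets was tested. All 7 core subunits had the larger SD in AAV-Null, though in *Ndufv1* the SDs were equal to 3 decimals (0.060). Without AAV-Null replicate 3 the SD was larger in AAV-Null in 26 of the 42 (61.9%), and without replicate 4 in 29 (69.0%), against 56.5% and 67.0% of all named genes.

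Within the AAV-Null group, replicates 3 and 4 were most often the arrays farthest from the group mean, in the complex I genes as over all named genes. The AAV-Null array farthest from its group was replicate 3 in 19 of the 42 genes (45.2%), against 49.3% of all named genes, and replicate 4 in 16 (38.1%), against 26.5%. The median size of the deviation of replicate 3 from the mean of 8 arrays was 0.10 in the complex I genes and 0.20 over all named genes. Relative to the mean of all 8 arrays, the deviations of these arrays had opposite signs in 39 of the 42 genes (92.9%), against 33 of the 42 genes of complexes II to V (78.6%) and 67.9% of all named genes. The difference between these shares was not tested. In 14 genes replicate 3 was above and replicate 4 below the mean, and in 25 the reverse. Among the first were *Ndufa11* (0.47 and −0.23), *Ndufb7* (0.29 and −0.14), *Ndufv3* (0.29 and −0.19), *Ndufs3* (0.25 and −0.18) and *Ndufs8* (0.25 and −0.13). Among the second were *Ndufb4* (−0.33 and 0.19), *Ndufb3* (−0.24 and 0.17) and *Ndufa6* (−0.23 and 0.15). The 3 exceptions were 1 core and 2 accessory subunits, and all 7 assembly factors had opposite signs.

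**Figure D4:**
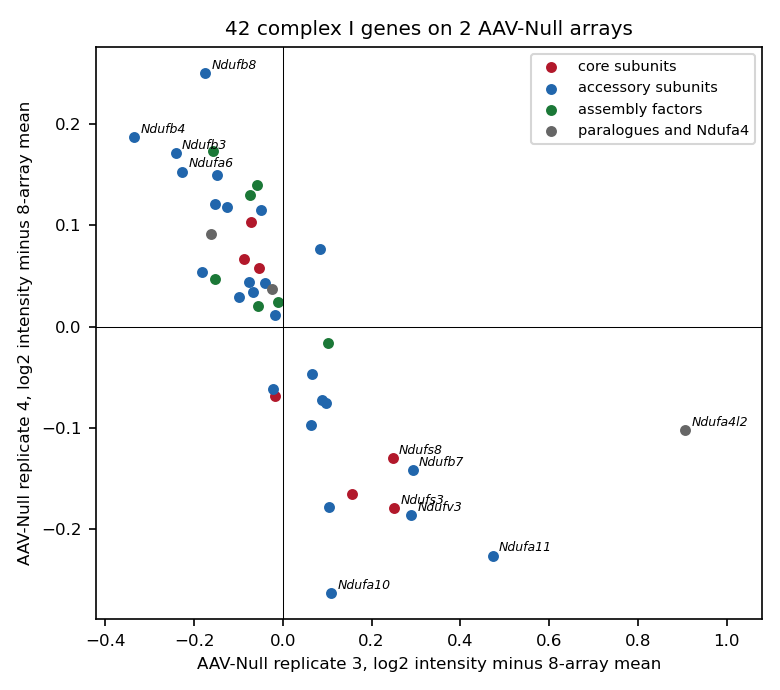
Deviation of AAV-Null replicate 3 (x axis) and of AAV-Null replicate 4 (y axis) from the mean of 8 arrays, log2 intensity, 1 point per complex I gene. In 39 of 42 genes the signs are opposite, and *Ndufa4l2* lies farthest out, at 0.91 on replicate 3.

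Leaving out AAV-Null replicate 3, alone or with replicate 4, changed the count of complex I genes with an unadjusted p under 0.05. Leaving out replicate 4 alone kept the count at 0. Without AAV-Null replicate 3 it was 2 of 42, *Ndufab1* (0.21) and *Ndufa4l2* (0.26), both higher in AAV-αSyn, where 8.14% of all probes tested had such a p, and 5.64% had it with all arrays. Without both replicate 3 and replicate 4, a setting added after seeing the data, it was 3, *Ndufab1* (0.19), *Ndufaf7* (0.17) and *Ndufa4l2* (0.35), against 9.23% of all probes. None of these passed the adjustment, with adjusted p-values of at least 0.440 (limma). Weighting all 8 arrays by their quality gave 5 genes, where 17.0% of all probes had such a p. The shares in this paragraph are per probe, and the complex I counts are per gene. *Ndufa4l2*, a paralogue known to respond to low oxygen, was 6.19, 6.30, 7.52 and 6.51 in AAV-Null and 6.55, 6.68, 6.64 and 6.498 in AAV-αSyn. With all arrays its log2 fold change was −0.037, so its sign turned on AAV-Null replicate 3. *Ndufa4* itself stood at 0.050 and *Ndufa10l1* at 0.069.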

How the data were processed

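SN RNA of 8 samples, 4 per group, was measured on Agilent SurePrint G3 Rat arrays in 1 colour. The authors' scanner files hold intensity values per spot, corrected for background within the array, and flags for spots above background or unusual. Per the labels the files were made with Feature Extraction 11.5.1.1, and per the file headers with 12.0.3.2. A table of quantile-normalized log2 values, deposited by the authors, was used as an alternative.

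Here the processed intensity of all spots except controls and outlier spots was taken to log2, quantile normalized and averaged per probe, using probes well above background (on at least 0.5 of their spots) on at least 1 array, 33853 in all. The AAV-αSyn and AAV-Null groups were compared with limma 3.58.1 (R 4.3.3), lmFit and eBayes, two-sided, with Benjamini–Hochberg adjustment over all these probes and a threshold of 0.05. Intervals are 95% intervals from this model. Permutation tests of single genes enumerated all 70 splits of the 8 arrays. Symbols came from RefSeq accessions of GRCr8, with 21229 probes named, and a gene was represented by its brightest probe. The class of each subunit was assigned from general knowledge of the enzyme.

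The complex I genes and all lists were chosen with earlier results of these data known. Genes to describe singly were the core subunits, the 5 highest and 5 lowest accessory subunits and assembly factors, any gene with an unadjusted p under 0.05 or groups that did not overlap, and *Th* and *Slc6a3*. Not every gene chosen in this way is reported singly here, and counts and medians include them all. Other genes named were chosen after their values were seen. Lists are described by counts and medians, with no test. The procedure was tested on simulated data. Alternatives changed the scaling, background correction, filter, source of values, variance model, probe summary or block, or left out arrays. The methods speak of 3 samples per group where 4 were used here, and the precision is limited by this number. The other assays of the study were not analysed here.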

Additional observations from a re-analysis of the deposited data

Results flagged for a closer look

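In 3 of the 84 sets of 4 arrays that the 42 complex I genes give, a single array lay far from the others, where chance gives about 4.2 (1 in 20). All 3 were in the AAV-Null group. In *Ndufa1* replicate 3 was 15.01 on the log2 scale and the others lay from 15.09 to 15.10, a gap of 0.892 of the whole range. In *Ndufa2* replicate 4 was 12.97 and the others 13.13 to 13.14 (gap 0.916 of the range), and in *Ndufb5* replicate 3 was 14.65 and the others 14.86 to 14.89 (gap 0.896 of the range).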

How the results depend on the processing

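The count of complex I genes with an unadjusted p under 0.05 was 0, and stayed 0 under every alternative run other than array weights and the removal of AAV-Null replicate 3, alone or with replicate 4. With array weights it was 5 (*Ndufb10*, *Ndufab1*, *Ndufa10l1* and *Ndufaf7* higher, *Ndufa2* lower), where 17.0% of all probes, rather than of genes, had such a p. Leaving out each array in turn gave 0 to 2, and leaving out AAV-Null replicates 3 and 4 together, added after seeing the data, gave 3. No complex I gene had an adjusted p under 0.05 under any of these, the smallest being 0.197 with array weights (limma). The median log2 fold change of the core subunits was −0.0037 to 0.052 when each array was left out, the highest without AAV-Null replicate 3, that of the accessory subunits −0.027 to 0.0072 and that of the assembly factors −0.014 to 0.045. The other alternatives gave −0.0058 to 0.030, −0.031 to −0.0061 and −0.017 to 0.038 for the same classes. Each of these 3 medians changed sign under some alternative. Of 528 recomputed values of 24 single genes, 50 changed sign, none of them with an unadjusted p under 0.05. *Ndufa4l2* is not among these 24. Its sign turned without AAV-Null replicate 3, at 0.26 (unadjusted p = 0.0281, limma), against −0.037 with all arrays.

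Same-numbered arrays of the groups did not all deviate together (correlations 0.14, 0.27, 0.041 and −0.0022), and the labels do not say that the numbers pair rats. With the replicate block the count of complex I genes stayed 0 and that of all probes was 2218, against 1908 without it. Over all probes, 0 had an adjusted p under 0.05 with the block (limma), against 5 without it. In both groups the replicate number matched the row of the array on the slide. The mean signal was not used here, so the normexp correction used the median signal. All complex I probes were well above background on every array.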
